A study of Rattus norvegicus with 90 samples.

Results

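Some liver transcripts stood on one side of the vehicle level 8 h after a high dose of thioacetamide and on the other side 24 h after it. They were selected on these values. A transcript was taken when its high-dose change was at least 0.7 in log2 units at one time and -0.7 or less at the other, which gave 82 of 40071 transcripts. Of these, 58 were higher at 8 h and lower at 24 h (up-then-down), and 24 were lower at 8 h and higher at 24 h (down-then-up). The change, called L below, was the log2 ratio of the mean CPM (counts scaled to a common library total) of the high-dose libraries to that of the vehicle libraries, with 1 CPM added to both, minus the median of this ratio over transcripts of 1 CPM or more in vehicle.

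Male Sprague-Dawley rats, bought at 10 weeks of age, received a single intraperitoneal injection of saline vehicle, a low dose (25 mg/kg) or a high dose (100 mg/kg) of thioacetamide. Poly-A RNA of liver, kidney and heart was sequenced, with 5 libraries in each of the 18 groups and 90 in all. All rats, vehicle controls included, carried a jugular catheter. The 8 h rats were dosed in the morning and then had no food. The 24 h rats were dosed in the late afternoon and lost their food for the final 8 h. Organs of both were collected at the same hour of the afternoon, so that hour and the final 8 h without food were alike. Time since dosing, the hour of dosing and feeding after the dose cannot be told apart in a comparison of the 2 times. The 3 organs came from the same rats, and the labels do not say which libraries share a rat. For 22 of the 30 liver libraries a kidney library of the same group carries a number 30 higher, and for 27 a heart library carries a number 60 higher, but no label says what the step means and it was not used. Liver library MS-1, labelled vehicle 24 h, and liver library MS-9, labelled low dose 8 h, were within 1 count of each other for 99.96% of the transcripts with 10 or more counts in either. MS-1 was left out of the selection, which therefore rests on 19 libraries, and MS-9 was left out of the low-dose values.

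Thioacetamide is a classical liver toxicant. It is harmless until liver enzymes, chiefly cytochromes P450 and flavin-containing monooxygenases, oxidise it to reactive S-oxides that bind proteins and lipids, and the damage starts around the central veins of the lobule, where these enzymes are abundant. Hepatocytes answer such an insult first with stress-response transcripts and later with loss of specialised functions, inflammation and regrowth, so a transcript may stand on opposite sides of its control level at an early and a late time. The files identify transcripts by Ensembl number only and no table used here pairs these numbers with genes. The roles of the 82 transcripts, and the labelled tissue by its marker genes, are therefore not described here. Transcripts are given below by their number for 4 of them and by their length for the others. In bulk liver, fewer cells of a type and less RNA per cell cannot be told apart.

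The position of the centre matters for how the 24 h values read. At 8 h the median ratio that was subtracted was 0.05, and at 24 h it was 0.68 (log2). The 10 most abundant transcripts took 24.7% to 27.2% of the counts in the vehicle libraries at 24 h and 17.5% to 21.7% in the high-dose libraries. The share left to all other transcripts differed by 0.12 (log2) between the group means. Factors by trimmed mean of M-values (TMM), which scales libraries on their typical transcripts, were 0.723 to 0.859 in the 24 h vehicle libraries without MS-1. They were 1.22 to 1.55 in the 24 h high-dose libraries. What moved the median was not tested. A 24 h value of L below -0.7 thus says that a transcript lay below the typical transcript. All 58 up-then-down transcripts had a lower CPM under high dose than in vehicle at 24 h, but the uncentred ratio ran from -3.72 to -0.03 with a median of -0.38, and it was -0.7 or less in 16. In 11 of the 58, both groups averaged under 1 CPM at 24 h. In the 24 down-then-up transcripts the uncentred 24 h ratio ran from 1.38 to 4.34, and the uncentred 8 h ratio had a median of -0.86.

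**Figure D1:**
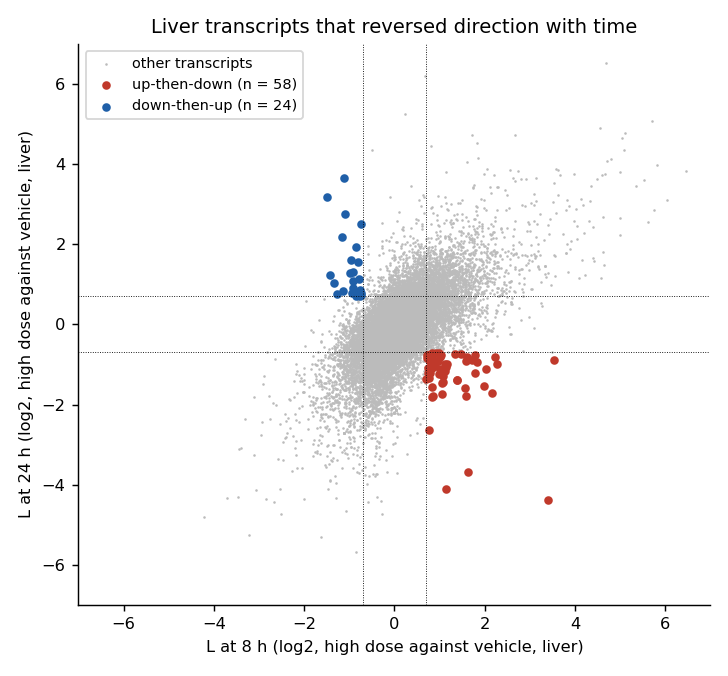
High-dose change L (log2, relative to the median transcript) at 8 h on the x axis and at 24 h on the y axis in the liver; each point is a transcript, grey points are those not selected, and dotted lines mark 0.7 and -0.7. Most transcripts with a large change lie in the quadrants of like sign, and the 58 red and 24 blue points lie in the corners that the selection took.

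The values that chose the up-then-down transcripts were L of 0.71 to 3.54 at 8 h (median 1.04) and of -4.40 to -0.71 at 24 h (median -1.05). For the down-then-up transcripts they were -1.50 to -0.73 at 8 h (median -0.92) and 0.70 to 3.66 at 24 h (median 1.11). Many lay close to the limit. The smaller of the 2 absolute values was within 0.1 of the limit in 19 of the 58 and in 10 of the 24, while 59 and 12 transcripts missed the limit by less than 0.1. The nearest up-then-down transcript inside had 0.71 and -1.36 and the nearest outside had 0.70 and -0.85, with 0.699 as the value that missed. On the other side the nearest inside had -0.77 and 0.70, and the nearest outside had -0.67 and 1.23.

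The groups differed in level. Over the 19 libraries the up-then-down transcripts had a median of 2.86 CPM (range 0.438 to 1397), with 22 of 58 under 2 CPM and 6 at 100 CPM or more. The down-then-up transcripts had a median of 11.2 CPM (2.16 to 554), with none under 2 CPM and 1 above 100 CPM. Transcripts of 1 CPM or more had a median of 11.6 CPM, and 12.1% of them were under 2 CPM. Some up-then-down transcripts averaged under 1 CPM. Shares over transcripts of 1 CPM or more, given below, are thus over a more abundant set than that group. Lengths were alike in both groups, with a median of 2572 bases for the first and 2974 bases for the second, beside 2197 bases for all transcripts of 1 CPM or more.

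How far single libraries kept the groups apart was counted next, as a description, since these libraries made the choice. At 8 h, 21 of the 58 up-then-down transcripts had every high-dose library above every vehicle library, where 24% of all 14963 transcripts of 1 CPM or more did. At 24 h, 5 had every high-dose library below every vehicle library, where 7.77% of all did. In the down-then-up group, 6 of 24 were lower without overlap at 8 h, beside 12.2% of all, and 22 were higher without overlap at 24 h, beside 57.9% of all. At both times, 3 of the 58 and 6 of the 24 were free of overlap, and 35 of the 58 overlapped at both. After TMM scaling, 7 and 9 were free of overlap at both times. The share of all transcripts was not set beside these joint counts, so nothing is read from them.

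An edgeR fit of the same contrast over all transcripts gave 13 up-then-down transcripts higher at 8 h, beside 12.4% of 16468 transcripts, and 14 lower at 24 h, beside 13.6% of 17137. For the down-then-up transcripts it gave 11 lower at 8 h, beside 7.75%, and 12 higher at 24 h, beside 13.2%. A transcript counted here had an adjusted p of 0.01 or less and a change of at least 0.60 in natural-log units, criteria taken from the study. The selection used this contrast, so nothing is read from these counts.

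Of the up-then-down transcripts free of overlap at both times, ENSRNOT00000055333 and ENSRNOT00000012537 had the largest smaller change, and they are given in every liver library. ENSRNOT00000055333 had 4.04, 5.77, 5.90, 3.76 and 6.402 CPM in the 8 h vehicle libraries and 25.7, 28.3, 33.95, 25.5 and 25.0 CPM in the 8 h high-dose libraries. In the 24 h libraries it had 8.14, 7.99, 9.42 and 7.87 CPM in vehicle and 1.04, 5.09, 4.67, 2.81 and 4.04 CPM under high dose. All high-dose libraries lay above all vehicle libraries at 8 h and below them at 24 h, and the vehicle libraries of the 2 times did not overlap either, those of 24 h being higher. At the low dose it had 16.6, 22.02, 26.2 and 9.54 CPM at 8 h and 3.33, 4.30, 8.61, 8.44 and 4.64 CPM at 24 h. All 8 h low-dose libraries lay above the 8 h vehicle libraries, while 2 of the 5 at 24 h lay within the vehicle range.

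ENSRNOT00000012537 was more abundant and its groups were tighter. It had 109.2, 109.0045, 81.3, 80.8 and 112 CPM in vehicle at 8 h, 270, 241, 249 and 238 CPM at the low dose and 381, 399, 489, 363 and 406 CPM at the high dose. The 24 h libraries had 164, 166, 124 and 135 CPM in vehicle, 133, 120, 130, 150 and 85.4 CPM at the low dose and 73.5, 80.3, 93.1, 63.96 and 89.6 CPM at the high dose. The 8 h groups were ordered by dose without any overlap. At 24 h the high dose was lowest, and the low-dose libraries overlapped both other groups. The left-out library MS-1 had 298 CPM of this transcript, nearly the value of MS-9 and far above the other vehicle libraries.

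In the down-then-up group, ENSRNOT00000022231 and ENSRNOT00000072712 were chosen in the same way. ENSRNOT00000022231 had 10.6, 13.2, 8.51, 11.4 and 20.2 CPM in vehicle at 8 h and 6.36, 6.64, 6.21, 6.01 and 6.53 CPM under high dose. The later libraries had 7.02, 6.42, 4.91 and 5.50 CPM in vehicle, 24.4, 19.6, 19.5, 24.2 and 18.1 CPM at the low dose and 31.997, 37.003, 31.96, 27.1 and 37.4 CPM at the high dose. The 24 h groups were again ordered by dose with no overlap. At 8 h the low-dose libraries, with 10.1, 12.3, 13.2 and 10.6 CPM, lay within the vehicle range and not near the high-dose libraries.

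ENSRNOT00000072712 had 7.11, 4.94, 7.63, 7.01 and 6.47 CPM in vehicle and 3.69, 1.42, 2.96, 3.75 and 4.08 CPM under high dose at 8 h. At 24 h it had 5.70, 6.30, 6.39 and 7.64 CPM in vehicle and 16.4, 26.4, 17.5, 17.04 and 30.2 CPM under high dose. Its low-dose libraries had 7.49, 13.5, 13.2 and 6.66 CPM at 8 h and 13.8, 13.4, 11.6, 11.01 and 10.5 CPM at 24 h. At 8 h 2 of the 4 lay within the vehicle range and 2 above it, and at 24 h they lay between vehicle and high dose in all 5.

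**Figure D2:**
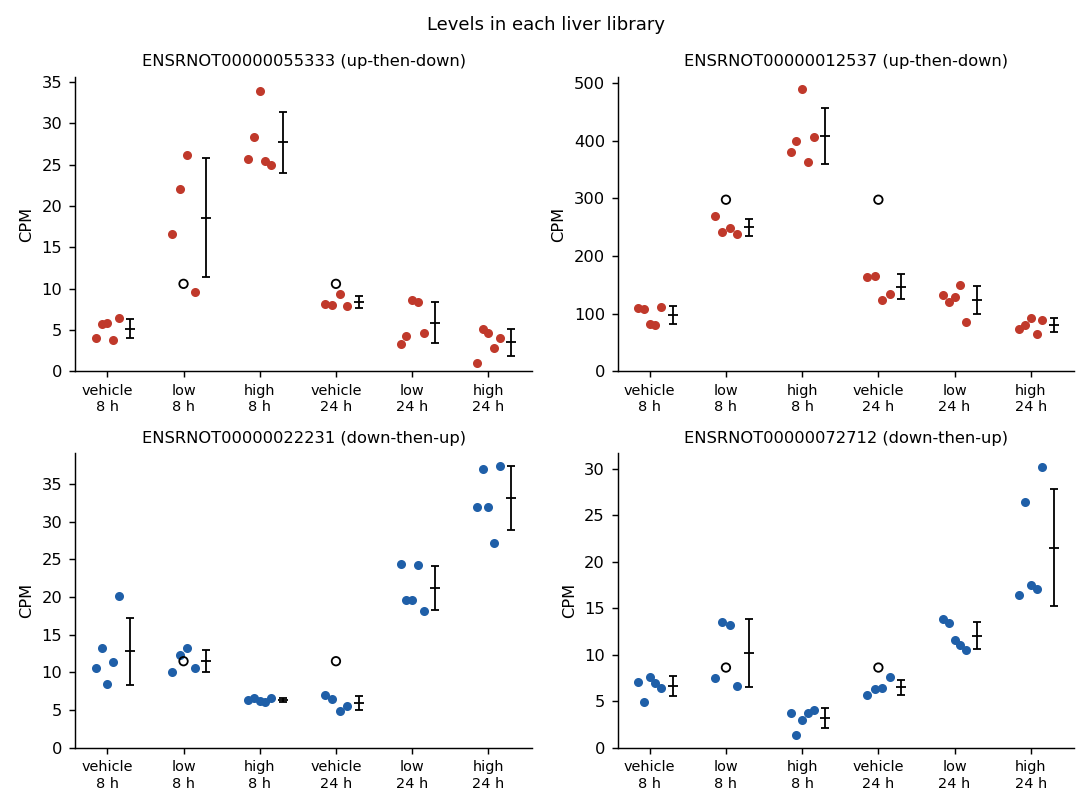
CPM (y axis, linear from 0) of the 4 transcripts in each liver library, by dose and time on the x axis; points are libraries, bars are the mean ± SD, and open circles are MS-1 (vehicle 24 h) and MS-9 (low 8 h), which are outside the mean. High-dose libraries lie above the vehicle libraries at 8 h and below them at 24 h in the upper panels, and the reverse in the lower panels.

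Several other members had a distinct pattern. The largest 8 h value of L, 3.54, belonged to an up-then-down transcript of 6413 bases. It had 12.7, 7.35, 3.64, 4.43 and 8.17 CPM in vehicle and 59.9, 124, 127, 90.3 and 90.5 CPM under high dose at 8 h. The 24 h values were 12.97, 8.54, 4.15 and 3.02 CPM in vehicle and 4.18, 5.93, 7.05, 6.70 and 6.201 CPM under high dose. The 8 h groups were far apart, whereas the 24 h high-dose libraries lay inside the vehicle range, and L at 24 h was -0.90 with the centring and -0.22 without it. The transcript of 9139 bases was of the same kind, with mean CPM of 227 and 782 at 8 h and of 158 and 137 at 24 h in vehicle and high dose.

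The most abundant member, an up-then-down transcript of 1864 bases, showed the opposite balance. At 24 h it had 3468, 2145, 2315 and 1221 CPM in vehicle and 461, 517, 931, 735 and 275 CPM under high dose, which did not overlap. At 8 h it had 638, 1681, 634, 1282 and 983 CPM in vehicle and 1560, 1474, 1467, 2056 and 2703 CPM under high dose, and 1 vehicle library lay inside the high-dose range.

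In the down-then-up group, 3 transcripts of 2917, 3052 and 2932 bases stood close together in level and in every mean. Their vehicle means at 8 h were 9.14, 6.42 and 5.24 CPM, and those under high dose were 3.69, 2.61 and 2.86 CPM. In all 3 the vehicle and high-dose libraries overlapped at 8 h, also after TMM scaling. Leaving out a single library could remove each of the 3 from the group. At 24 h they had 2.35, 1.34 and 1.48 CPM in vehicle and 23.1, 24.3 and 21.6 CPM under high dose, without overlap. The 24 h difference was much the larger one. Whether they come from a single gene could not be looked up. The transcript of 1726 bases had the largest smaller change of the group, but its 8 h vehicle libraries held 8.60, 6.69, 96.1, 5.24 and 54.3 CPM, so that MS-16 and MS-29 made the 8 h value. Its 8 h high-dose libraries held 26.6, 8.39, 15.02, 7.55 and 1.92 CPM, and 4 of the 5 lay within the range of the lower 3 vehicle libraries or above it.

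A transcript of 3809 bases in the same group did not order by dose. At 8 h it had 28.03, 44.4, 22.2, 52.6 and 58.01 CPM in vehicle, 149, 181, 110 and 104 CPM at the low dose and 17.2, 26.6, 33.3, 14.5 and 23.7 CPM at the high dose. At 24 h it had 75.0, 39.5, 33.8 and 27.9 CPM in vehicle, 95.8, 110, 111, 91.8 and 67.2 CPM at the low dose and 232, 378, 248, 160 and 353 CPM at the high dose. The low-dose libraries were the highest at 8 h and without overlap, and they lay between the others at 24 h, where 1 of 5 was within the vehicle range.

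The spread between libraries of a group was wide for many members. A range of 4-fold or more in CPM + 1 within at least 1 group of the selection occurred in 30 of 58 and 10 of 24, beside 7.81% of transcripts of 1 CPM or more. It also occurred in libraries that the selection did not use, in a low-dose liver group for 23 of 58 and 5 of 24 (3.84% of transcripts of 1 CPM or more) and in a kidney vehicle or high-dose group for 25 of 58 and 4 of 24 (9.82%). These libraries come from the same study, and the kidneys from the same rats. Only 18 of the 58 and 7 of the 24 stayed members when each of the 19 libraries was left out in turn.

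The plainest case was an up-then-down transcript of 348 bases, which had the lowest L at 24 h and an L of 3.41 at 8 h. In liver it had 30.0 and 32.8 CPM in 2 of the 5 high-dose libraries at 8 h and 0 CPM in the other 3. It had 30.6 and 26.2 CPM in 2 of the 4 vehicle libraries at 24 h, with 0 and 0.468 CPM in the others, and 30.7 CPM in 1 low-dose library at 8 h, while every remaining liver library had at most 1.01 CPM. The same split recurred in the other organs. In the kidney, 2 of 5 high-dose libraries at 8 h had 52.4 and 44.6 CPM and 3 of 5 vehicle libraries at 24 h had 71.95, 36.2 and 32.03 CPM. In the heart, the same numbers of libraries in the same groups had 26.4 and 25.7 CPM and 57.5, 24.9 and 27.7 CPM. Over the 3 organs its level was 24.9 CPM or more or else at most 1.4997 CPM in every library but 1, a low-dose heart library with 4.53 CPM, and its group means rest on how many libraries of each kind a group held. What separates these libraries was not tested.

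The more abundant of 2 up-then-down transcripts of 1376 bases was split likewise. At 8 h it had 95.6, 8.93, 10.6, 6.84 and 63.5 CPM in liver vehicle libraries and 261, 157, 15.6, 89.9 and 80.9 CPM under high dose. At 24 h it had 123, 61.1, 63.4 and 77.7 CPM in vehicle and 11.8, 3.38, 13.6, 10.5 and 6.97 CPM under high dose. The 24 h groups did not overlap, and the 8 h groups did. In both low-dose groups it also took values of 8.03 to 14.3 CPM in some libraries and of 71.1 to 107 CPM in others. A pair of up-then-down transcripts of 360 bases had the same CPM in every library and counts as 2 of the 58.

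A reversal of L can come from the high-dose rats, from the vehicle rats or from both. From 8 to 24 h, on a log2 scale centred on the median transcript, the high-dose level of the up-then-down transcripts changed by a median of -1.65 and was lower at 24 h in all 58. Their vehicle level changed the other way, by a median of 0.62, and was higher at 24 h in 51 of 58. In the down-then-up group the medians were 1.58 for high dose and -0.55 for vehicle, and vehicle was lower at 24 h in 21 of 24. The high-dose change was the larger in 46 of 58 and in 20 of 24, where it was the larger in 75.2% of transcripts of 1 CPM or more. A vehicle change of over 0.7 in the direction against the high dose was present in 26 of 58 and 10 of 24, beside 1.34% of transcripts of 1 CPM or more that were over 0.7 higher in vehicle at 24 h and 1.74% that were as much lower. The selection favours such opposed changes in these libraries, so these counts are descriptive.

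The low dose shares the vehicle libraries of the selection, and its L is given beside that of the high dose without a test. At 8 h the up-then-down transcripts had a median L of 0.45 at the low dose and were above 0 in 46 of 58. At 24 h the median was -0.81, with 55 of 58 below 0. The low-dose L was centred as well, so a 24 h value below 0 did not always go with a lower CPM than in vehicle. The transcript of 5231 bases had an L of -0.25 with mean CPM of 8.12 at the low dose and 7.04 in vehicle. ENSRNOT00000055333 had an L of -0.88 with 5.86 and 8.35 CPM. The down-then-up transcripts had medians of -0.45 (19 of 24 below 0) and 0.69 (23 of 24 above 0). On median the low-dose values were thus nearer to 0 than the high-dose values in both groups and at both times. The selection asked for high-dose values of at least 0.7 in size and set no floor for the low dose, so nothing about dose is read from this order.

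**Figure D3:**
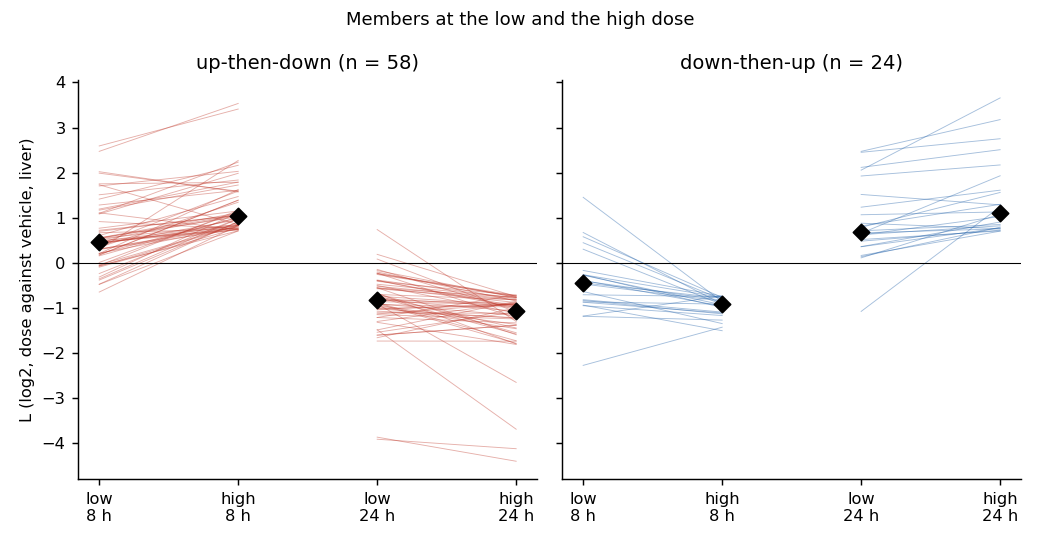
L (y axis, log2, each dose against vehicle in the liver) at the low and the high dose for 8 h and 24 h; each line joins the values of a transcript and diamonds are medians. The diamonds lie at 0.45, 1.04, -0.81 and -1.05 for the up-then-down group and at -0.45, -0.92, 0.69 and 1.11 for the down-then-up group.

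The low-dose libraries themselves took no part in the selection, so the change between the times within them was tested, with 5 libraries at 24 h and 4 at 8 h. In edgeR's quasi-likelihood test with Benjamini-Hochberg adjustment over all transcripts, 7 of the 58 up-then-down transcripts fell and 0 rose, beside 1.14% of 17150 transcripts that fell. Of the 24 down-then-up transcripts, 7 rose and 0 fell, beside 1.59% of the transcripts that rose. The filter on low counts passed 47 and 23 of them. Without that filter the counts were again 7 and 7, and the fitted change was below 0 in 40 of 58 and above 0 in 19 of 24, where 14332 of 28564 transcripts were below 0. At an unadjusted p under 0.05 there were 24 up-then-down and 16 down-then-up transcripts, beside 36.1% of all transcripts tested. The test holds no vehicle libraries, so it cannot tell a return to the vehicle level from a passage across it.

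The up-then-down transcripts that fell between the times at the low dose included both that were given by number. ENSRNOT00000012537 changed by -1.16 (log2, SE 0.14, adjusted p = 0.00159, edgeR) and ENSRNOT00000055333 by -1.80 (SE 0.36, adjusted p = 0.00827, edgeR). The former was called when each library was left out in turn, and the latter lost its call without 8 of the 9 libraries, its adjusted p rising to 0.0249. The transcript of 6413 bases fell most, by 3.50 on the log2 scale (SE 0.38, adjusted p = 0.00103, edgeR). Its libraries held 28.4, 43.3, 56.8 and 85.6 CPM at 8 h and 7.86, 5.30, 5.55, 5.40 and 2.18 CPM at 24 h. The transcript of 9139 bases fell by 2.97 (SE 0.28, adjusted p = 0.000631, edgeR), and the remaining 3, of 3333, 4725 and 3029 bases, fell by 1.96, 1.27 and 1.08. In all, 6 of the 7 calls held in each of the 9 fits that left a library out.

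Among the down-then-up transcripts, the 3 of like level rose at the low dose. That of 3052 bases rose by 1.89 (SE 0.17, adjusted p = 0.000631, edgeR), from 3.90, 4.83, 3.81 and 3.52 CPM at 8 h to 15.998, 12.8, 15.5, 21.9 and 15.6 CPM at 24 h. Those of 2932 and 2917 bases rose by 1.79 and 1.48, and these 3 calls held in every fit that left a library out. The other 4, of 3015, 4145, 3756 and 4215 bases, rose by 1.20, 1.16, 1.11 and 0.93 and lost their call without at least 1 library. The group's count was 4 without MS-12, MS-18 or MS-2. Those fits called 238, 218 and 234 of all transcripts, where the fit of all 9 libraries called 469. ENSRNOT00000022231 had a change of 0.73 (SE 0.13, adjusted p = 0.00547, edgeR), under the limit on size, and ENSRNOT00000072712 had 0.09 (SE 0.22, adjusted p = 0.797, edgeR).

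**Figure D4:**
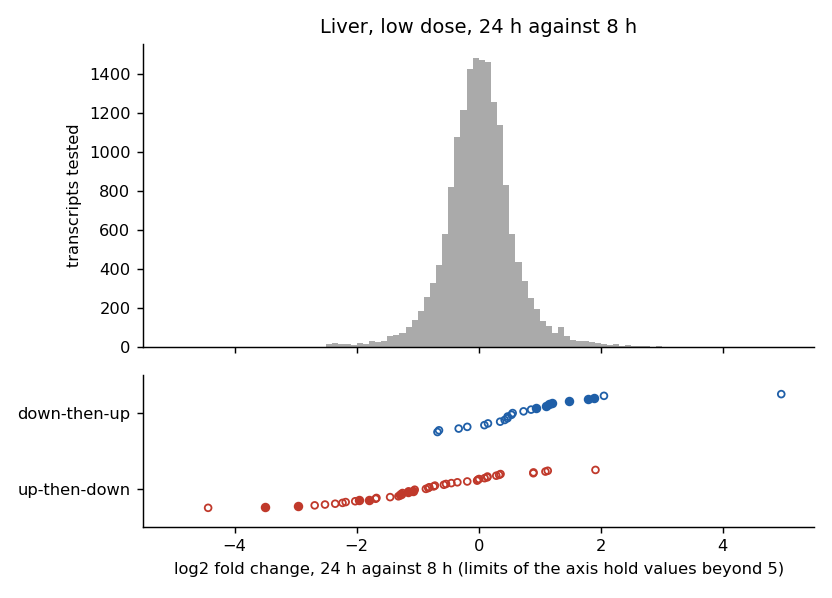
Log2 fold change between 24 h and 8 h at the low dose in the liver (x axis) for all 17150 transcripts tested (histogram, number of transcripts) and for the members that passed the filter (points, filled where the edgeR test called them). Filled points are 7 below 0 in the up-then-down group and 7 above 0 in the down-then-up group.

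The kidney and heart libraries were not used by the selection, but these organs came from the same rats as the livers. In the kidney the vehicle mean was 1 CPM or more for 42 of the 58 up-then-down and 22 of the 24 down-then-up transcripts, and in the heart for 27 and 19. In 13 and 1 of them neither organ reached 1 CPM. Of transcripts of 1 CPM or more in liver, 93.9% reached 1 CPM in the kidney and 88.9% in the heart. The medians subtracted from L were small here, between -0.05 and 0.10 in the kidney and between -0.02 and 0.02 in the heart.

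Under high dose in the kidney, the up-then-down transcripts had a median L of 0.12 at 8 h (41 of 58 above 0) and of -0.10 at 24 h (33 of 58 below 0), so the medians were near 0 at both times. The down-then-up transcripts had medians of -0.03 and -0.05. Passing the limits of the selection in the same directions, 4 of the 58 reversed in the kidney too, and 2 passed them in the opposite directions, where 0.0802% and 0.321% of transcripts of 1 CPM or more in liver did so. These 4 were the transcript of 348 bases, the more abundant one of 1376 bases and the pair of 360 bases with the same CPM. The pair is a single pattern counted as 2. The kidneys came from the same rats as the livers, so nothing is read from this count. None of the 24 reversed in the kidney in either direction. In the heart, 2 of the 58 passed the limits in the same directions and 1 in the opposite ones, beside 0.0735% and 0.0267% of transcripts of 1 CPM or more in liver, and no down-then-up transcript did.

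At 8 h in the kidney, 3 of the 58 up-then-down transcripts were called, all of which rose, and 0 of the 24 down-then-up transcripts were, beside 1.49% of 18597 transcripts in either direction (edgeR, 5 libraries against 5). The filter passed 39 and 23 of them. In the edgeR test, 15 up-then-down and 5 down-then-up transcripts had an unadjusted p under 0.05, beside 23.8% of all transcripts tested. DESeq2 called 5 and 1, beside 3.22% of all. The count of 3 became 8 without MS-100, and 1 without MS-46, MS-58 or MS-57, and that of 0 became 2 without MS-100. Without MS-100 the calls over all transcripts rose as well, to 4.88% of 18855. ENSRNOT00000012537 rose by 1.49 (log2, SE 0.17, adjusted p = 0.000532, edgeR) and was called in all 10 fits that left a library out. Its kidney libraries held 116, 105.8, 93.2, 81.2 and 160 CPM in vehicle and 298, 284, 362, 248 and 342 CPM under high dose, with no overlap.

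The transcript of 6413 bases rose by 1.16 (SE 0.19, adjusted p = 0.00475, edgeR) and that of 1866 bases by 2.84 (SE 0.48, adjusted p = 0.00593, edgeR), calls that were lost in 6 and 8 of those 10 fits. The latter had 0.650, 1.95, 0.479, 0.305 and 0.510 CPM in kidney vehicle libraries and 3.99, 4.37, 7.02, 6.09 and 6.54 CPM under high dose. ENSRNOT00000055333 had a change of 1.99 (SE 0.42, adjusted p = 0.0178, edgeR), past the limit on size only, with 2.22, 1.69, 2.06, 3.14 and 8.93 CPM in vehicle and 12.1, 11.9, 10.4, 17.4 and 17.9 CPM under high dose. The groups did not overlap, and 1 vehicle library stood above the other 4.

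At 24 h in the kidney, 2 of the 58 and 1 of the 24 were called, beside 4.19% of 18967 transcripts, and all 3 fell (43 and 22 passed the filter). Without MS-106 the first count was 4, and 1058 of all 19294 transcripts were called. The up-then-down transcripts of 2717 and 2609 bases fell by 2.77 (SE 0.41) and 1.09 (SE 0.17) on the log2 scale, with adjusted p of 0.00122 and 0.00146 (edgeR). In the transcript of 2717 bases the vehicle libraries had 62.3, 21.9, 29.7, 28.7 and 28.3 CPM and the high-dose libraries 4.62, 4.01, 3.08, 11.1 and 4.33 CPM. The down-then-up transcript of 3809 bases moved against its liver direction. It fell by 1.36 in the kidney (SE 0.14, adjusted p = 0.000125, edgeR), from 356, 292, 429, 415 and 290 CPM to 122, 132, 166, 167 and 164 CPM. In all 10 fits that left a library out, these 3 calls were kept.

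In the heart at 24 h, 1 of the 58 and 1 of the 24 were called, beside 0.922% of 17574 transcripts (34 and 19 passed the filter). Without MS-80 or MS-84 the first count was 2, beside 137 of all 17746 and 175 of all 17771 transcripts. The transcript of 3809 bases fell here as well, by 1.10 (SE 0.15, adjusted p = 0.00204, edgeR), from 77.5, 84.9, 55.8, 61.5 and 61.6 CPM in vehicle to 34.8, 24.4, 36.9, 34.5 and 25.9 CPM under high dose. In liver at the same time it was higher under high dose. The up-then-down transcript of 4725 bases fell by 1.17 (SE 0.16, adjusted p = 0.00205, edgeR). In limma on log2(TPM + 1) that change was -0.73 and under the limit on size, and the 1 up-then-down transcript called there rose.

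Whether the high-dose effect differed between the times in the kidney was tested as an interaction over 20 libraries. It differed in 4 of the 58 up-then-down transcripts, all with the 24 h effect below the 8 h effect, and in 0 of the 24 down-then-up transcripts, beside 0.867% of 19959 transcripts (adjusted p of 0.01 or less, edgeR, 49 and 23 passed the filter). In the same test, 18 up-then-down and 4 down-then-up transcripts had an unadjusted p under 0.05, beside 17.9% of all transcripts tested. Neither DESeq2 nor limma called any down-then-up transcript. ENSRNOT00000012537 had an interaction of -1.71 (log2, SE 0.19, adjusted p = 3.63e-05, edgeR) and the transcript of 6413 bases one of -1.78 (SE 0.28, adjusted p = 0.00164, edgeR), and both held in all 20 fits that left a library out. At 24 h the kidney libraries of ENSRNOT00000012537 had 145, 157, 177, 172 and 154 CPM in vehicle and 142, 148, 140, 150 and 155 CPM under high dose, which overlapped.

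The other 2 calls of the interaction were less firm. The transcript of 2717 bases had -2.79 (SE 0.54, adjusted p = 0.00735, edgeR) and lost its call in 12 of the 20 fits that left a library out. The transcript of 348 bases lost it in 10 of 20, and its size cannot be given as a fold because the 8 h vehicle and 24 h high-dose libraries were near 0. Leaving out a library gave 2 calls at the lowest and 6 at the highest. The 6 came without MS-100, where 264 of all 20211 transcripts were called. For both ENSRNOT00000022231 and ENSRNOT00000072712 the kidney interaction was within 1 SE of 0, at -0.09 (SE 0.13) and 0.12 (SE 0.23).

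**Figure D5:**
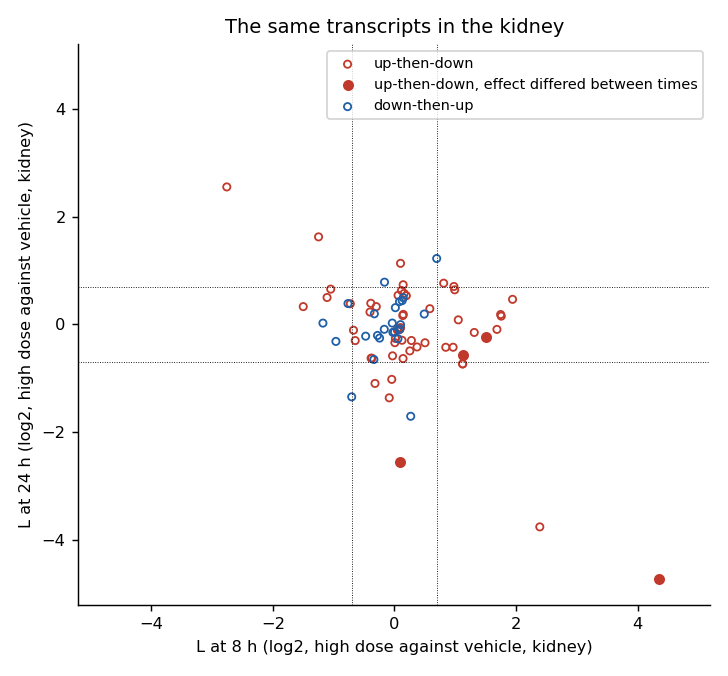
High-dose change L in the kidney (log2, relative to the median transcript) at 8 h on the x axis and 24 h on the y axis for the 82 transcripts; filled points are the 4 with a called interaction of dose and time, and dotted lines mark 0.7 and -0.7. Most points lie between the lines at both times. The 4 red transcripts in the lower right corner are a different set, in which only that of 348 bases is filled. The pair of 360 bases falls on a single point there.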

How the data were processed

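RNA was sequenced as 75-base paired-end poly-A libraries. Per the file headers and the submitters' processing notes, the authors quantified each library with kallisto 0.42.2 (Rnor_6.0) and deposited estimated counts, TPM and target lengths per target. The counts of the Ensembl transcript rows were turned into CPM of their own sum, which was 15870343 to 34299122 per liver library. kallisto divides reads between transcripts that share sequence, so levels of similar transcripts are uncertain.

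Rounded counts were tested with edgeR 4.0.16 (quasi-likelihood, TMM, default filterByExpr; R 4.3.3). A call needed an adjusted p of 0.01 or less and 0.60 natural-log units (0.866 in log2). DESeq2 1.42.0, limma 3.58.1 on deposited TPM, no filter, no limit on size and leaving out each library were the alternatives. The scripts were tested on simulated counts. Replicates are separate rats. The members, the lists and the tests were chosen with earlier results of these data known. Of each group, the 2 transcripts given by number had at least 2 CPM, no overlap at both times and the highest smaller change; those given by length were picked after their values were seen. Counting intervals were not computed.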

Additional observations from a re-analysis of the deposited data

Results flagged for a closer look

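A sample far from the others was sought by Dixon's ratio in 84 groups of 4 or 5 libraries, for the transcripts given by number in liver and kidney and for those of extreme level or change in liver. It was found in 7, where chance gives about 1 in 20. ENSRNOT00000055333 had 8.93 CPM in kidney vehicle library MS-59 at 8 h, 12.5 CPM in low-dose kidney library MS-108 at 8 h and 10.97 CPM in low-dose kidney library MS-37 at 24 h, each above the other 4 of its group. The transcript of 348 bases had 30.7 CPM in low-dose liver library MS-18 at 8 h and 1.01 CPM in vehicle liver library MS-10 at 8 h, where the others were near 0. The transcript of 2424 bases had 5.14 CPM in vehicle liver library MS-21 at 24 h, and the value of 0.000331 CPM in high-dose liver library MS-14 at 8 h is, like its group, effectively 0.

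The high-dose effect in the kidney differed between 24 h and 8 h, by the edgeR test of the interaction, in 4 up-then-down transcripts. The fitted difference was -1.71 for ENSRNOT00000012537 of 2338 bases, -1.78 for the transcript of 6413 bases and -2.79 for that of 2717 bases. For the transcript of 348 bases the fitted -16.35 rests on groups at or near 0 and is not a size. In limma on log2(TPM + 1) that last difference was not called (adjusted p = 0.132).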

How the results depend on the processing

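Membership depended on the scale. The up-then-down and down-then-up counts of 58 and 24 became 396 and 139 with a pseudocount of 0.1 CPM, 13 and 6 with 5 CPM, 17 and 81 without centring, 219 and 61 at a limit of 0.5, and 18 and 6 at a limit of 1. From deposited TPM they were 236 and 30, of which 33 and 10 were members. Group medians gave 84 and 23, with 32 and 14 of the members, and TMM-scaled CPM gave 51 and 29, with 42 and 22. Leaving out a library gave 54 to 100 and 21 to 29, the 100 without MS-16. Members called in the low-dose test were 11 and 9 with DESeq2, which called 899 of all 17150 transcripts where edgeR called 469. They were 6 to 8 and 4 to 7 when a library was left out. In the kidney at 8 h, DESeq2 called 5 and 1, beside 599 of all 18597 transcripts. No limit on size gave 1 down-then-up call, beside 411 of all, where edgeR with the limit called 278. Leaving out a library gave 1 to 8 and 0 to 2. At 24 h, no limit on size gave 4 up-then-down calls, beside 1263 of all 18967 transcripts. DESeq2 called 2 down-then-up transcripts, beside 1138 of all, where edgeR with the limit called 794. Leaving out a library gave 2 to 4 and 1 to 1. In the heart, DESeq2 called 2 up-then-down transcripts, beside 287 of all 17574 transcripts, where edgeR called 162. Leaving out a library gave 1 to 2 and 1 to 1. For the interaction, DESeq2 called 8 up-then-down transcripts, beside 484 of all 19959 transcripts, where edgeR called 173. Leaving out a library gave 2 to 6 and 0 to 0. The first count was 2 without MS-40, MS-46, MS-58, MS-59, MS-31, MS-36, MS-54 or MS-56. Of 58 counts under alternatives that left out no replicate, 39 were within 1.5 times the reported count and 19 were not; the cause was not tested. No paired analysis was possible because each test compares different rats within an organ, and the groups compared share no library numbers.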
